A study of Mus musculus with 2 samples.

Results

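Regulatory T cells were followed here in single-cell RNA counts of CD31+ cells from the mouse mesentery, the fold of peritoneum that carries the vessels and lymph nodes of the gut. They were picked by raw counts of unique molecular identifiers (UMIs, each standing for 1 captured transcript): a cell needed at least 2000 UMIs in all, at most 10% of them from mitochondrial genes, at least 1 UMI of Foxp3, at least 1 of Cd3d, Cd3e and Cd3g together, none of Cdh5, Cd8a or Cd8b1, at most 1 of Cd79a and at most 2 of Mki67 and Top2a together. The rule took 117 of 11273 cells, 86 of 6814 in the control library and 31 of 4459 in the Flcn iΔEC library. Both libraries were made from C57BL/6 pups at P8, each by pooling the cells of 3 mice. Flcn iΔEC pups carried the Cdh5-BAC-CreERT2 transgene and Flcn flox/flox alleles, so that folliculin was to be deleted in cells with an active Cdh5 promoter, which is endothelial, and not in T cells. Per the labels, both libraries came from pups given 40 µg of 4-hydroxytamoxifen under the skin on days 2, 3.5, 5 and 6.5 of life, while the alleles of the control pups are not given in the sources used here. With 1 library per genotype, no difference between the genotypes could be tested.

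Regulatory T cells are the CD4 T cells that hold other lymphocytes in check. Foxp3, a forkhead transcription factor encoded on the X chromosome, defines the lineage, and mice without it develop fatal autoimmunity. The cells depend on interleukin 2, which they bind through a receptor that holds the high-affinity chain Il2ra (CD25) and which signals through STAT5, and on T cell receptor, CD28 and TNF receptor family signals that reach NFAT and NF-kB. They act through surface molecules such as Ctla4, through enzymes that make adenosine, and through cytokines, and part of them leaves the resting, recirculating state for an activated, tissue-homing one. In newborn mice the cells leave the thymus during the first days of life.

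Foxp3, Il2ra and Tnfrsf18 are shown by the 250 bases before their RefSeq start (GRCm38.p6, plus strand, 5′ to 3′) because they stand for the lineage factor, the IL-2 receptor and the TNF receptor family, whose products were measured together below. Capitals mark every match to 6 motifs searched on both strands: a forkhead motif (TGTTTNC), the NFAT core (GGAAA), a STAT motif (TTCNNNGAA), an NF-kB motif (GGGNNTTCC), a Runx motif (TGTGGT) and the TATA box (TATAAA).
Foxp3, chrX:7579426-7579675: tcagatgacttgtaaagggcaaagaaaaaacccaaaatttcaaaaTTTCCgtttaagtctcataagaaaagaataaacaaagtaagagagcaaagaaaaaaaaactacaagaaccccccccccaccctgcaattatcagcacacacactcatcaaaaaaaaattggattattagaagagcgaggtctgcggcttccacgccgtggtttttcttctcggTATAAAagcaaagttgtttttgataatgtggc
Il2ra, chr2:11642542-11642791: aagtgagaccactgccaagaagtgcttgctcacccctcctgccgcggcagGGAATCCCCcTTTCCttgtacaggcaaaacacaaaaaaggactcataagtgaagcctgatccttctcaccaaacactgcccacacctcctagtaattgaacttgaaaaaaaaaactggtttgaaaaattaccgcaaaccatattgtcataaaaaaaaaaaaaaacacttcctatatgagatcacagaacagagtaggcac
Tnfrsf18, chr4:156026072-156026321: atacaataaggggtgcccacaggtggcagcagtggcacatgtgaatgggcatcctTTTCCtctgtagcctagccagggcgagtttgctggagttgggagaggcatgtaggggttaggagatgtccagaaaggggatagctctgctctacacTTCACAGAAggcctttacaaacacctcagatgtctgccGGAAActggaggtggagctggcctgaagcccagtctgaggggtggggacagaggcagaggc
In the Foxp3 window, the first of 2 starts that RefSeq lists, the capitals are an NFAT core read on the minus strand and a TATA box whose first base lies 32 bases before the start. The Il2ra window held an NF-kB match on the minus strand, with an NFAT core 1 base after it. The Tnfrsf18 window held 2 NFAT cores and a STAT match, while the windows of Ctla4 and Tnfrsf4 held 1 NFAT core each. Over 32851 promoters of the same length, 55.6% held the NFAT core, 17.8% the forkhead motif, 14.0% the Runx motif, 12.4% the TATA box, 7.02% the STAT motif and 4.98% the NF-kB motif. Of 17 surface and identity genes listed for these cells, 12 had an entry, and of these 8 (66.7%) held the NFAT core, 2 the Runx motif, 1 each the forkhead, STAT and NF-kB motifs, and none the TATA box. These are matches of letters, not binding sites.

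The libraries held 64639756 and 60805779 UMIs in all, and the regulatory T cells 692547 among control and 335490 among Flcn iΔEC cells. Their median depth was 7392 and 9848 UMIs a cell, beside 7612 and 7717 for conventional CD4 T cells, which passed the same gate with at least 1 Cd4 UMI and none of Foxp3 (1063 and 357 cells), and 8111 and 8370 for CD8 T cells, which had Cd8a or Cd8b1 and neither Cd4 nor Foxp3 (543 and 335 cells). Xist, the transcript of the inactive X chromosome, stood at 0 UMIs in the control and 301 UMIs in the Flcn iΔEC regulatory T cells, and the Y-linked Ddx3y at 62 and 0, so sex, library and genotype cannot be told apart. Of 6 barcodes that the libraries shared, none belonged to these cells. Scrublet, a doublet caller, marked 2.08% and 0.830% of all cells and no regulatory T cell. Yet 2 of the 31 Flcn iΔEC cells carried many transcripts of another lineage. The first, of 16372 UMIs, held every Mcpt8 (95) and Prss34 (142) UMI of the group, both proteases of basophils, beside 30 UMIs of the Cd3 genes and 5 of Foxp3. The second, of 20125 UMIs, held 6079 of the 6101 Hbb-bs UMIs, a hemoglobin chain, beside 14 UMIs of the Cd3 genes and 1 of Foxp3. Cells of this kind, with at least 0.5% of their UMIs from basophil, myeloid, erythroid, endothelial or fibroblast genes, are called mixed below, a limit set after the data were seen. There were 4 among the control conventional CD4 T cells (2 myeloid, 2 erythroid) and 1 among the control CD8 T cells, and calls in the pathway lists that turn on them are given with and without them for the comparison with conventional CD4 T cells.

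Foxp3 itself, which chose the cells, was read from few molecules. It gave 199 UMIs in the control cells, or 287 counts per 1000000 UMIs (CPM, 95% Poisson interval 249 to 330.2), and 72 UMIs in the Flcn iΔEC cells, or 215 CPM (168 to 270.3). Of the 117 cells, 56 had a single Foxp3 UMI (41 and 15) and 61 had 2 or more, up to 9. At the other limits, 7 cells had the 1 allowed Cd79a UMI, 5 had the 2 allowed UMIs of Mki67 and Top2a, and the shallowest cells had 2440 and 3072 UMIs. Just outside, 45 further cells with a Foxp3 UMI were left out, 10 of them by the limit on Mki67 and Top2a alone, 7 by Cd8a or Cd8b1, 5 by Cd79a, 3 by the Cd3 genes, 2 by mitochondrial share, 2 by Cdh5 and 16 by 2 or more limits. Free RNA in the droplets can give a UMI to a cell that does not express a gene. B cells were taken here as cells with at least 2 Cd79a UMIs and none of the Cd3 genes (median depth 6352 and 8217.5 UMIs). None of 2275 control and none of 1454 Flcn iΔEC B cells had a Foxp3 UMI, which allows shares of up to 0.132% and 0.206%. Cells with UMIs of both Cd79a and the Cd3 genes, such as the 5 left out by Cd79a alone, are not in this background. Of cells with Cdh5, which were deeper (medians of 14370.5 and 23105 UMIs), 5 of 682 (0.733%) and 3 of 977 (0.307%) had a Foxp3 UMI. Among T cells with Cd8a or Cd8b1 and no Cd4, 2 of 545 and 1 of 336 had one, against 48 of 1111 (4.32%) and 17 of 374 (4.55%) of T cells with Cd4 and 38 of 754 (5.04%) and 14 of 380 (3.68%) of T cells with neither. Cd4, the co-receptor of the lineage, was seen in 65 of the 117 cells and missed in 52.

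Regulatory T cells made up 7.48% of the control CD4 lineage (86 of 1149 regulatory and conventional CD4 T cells, exact 95% interval 6.03 to 9.16%) and 7.99% of the Flcn iΔEC CD4 lineage (31 of 388, 5.49 to 11.1%). Each share lay inside the other's interval. Without the mixed cells both were 7.51%. Conventional CD4 T cells needed a Cd4 UMI and regulatory T cells did not, which raises these shares. Missed Foxp3 lowers them, since a regulatory T cell with a Cd4 UMI and no Foxp3 UMI counts as conventional. Such cells would also sit in the comparison group below, and their number was not measured. With a Cd4 UMI asked of both, they were 4.32% and 4.55%. Under the unequal limit, counting only cells with 2 or more Foxp3 UMIs gave 4.06% and 4.29%. Also under it, thinning each cell to 2000 UMIs gave 8.24% (43 of 522) and 11.4% (17 of 149). Of all cells recovered, regulatory T cells were 1.26% (1.01 to 1.56%) of the control and 0.695% (0.473 to 0.985%) of the Flcn iΔEC library, shares that depend on how the bead selection for CD31 took each cell type. Pecam1, which encodes CD31, stood at 120 and 89.4 CPM in regulatory T cells and had a UMI in 59.3% and 61.3% of them, against 126 and 111 CPM in conventional CD4 T cells and 849 and 633 CPM in cells with Cdh5. Ptprc, the leukocyte gene for CD45, stood at 900 and 766 CPM in the regulatory T cells.

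The label was checked cell by cell on 5 genes that the rule did not read: Il2ra, Ctla4, the TNF receptors Tnfrsf4 (OX40) and Tnfrsf18 (GITR), and Ikzf2, which encodes the transcription factor Helios. At least 3 of the 5 were detected in 92 of 117 regulatory T cells (78.6%), in 66 of 86 control (76.7%) and 26 of 31 Flcn iΔEC cells (83.9%). In conventional CD4 T cells this was 43 of 1420 (3.03%), and in CD8 T cells 19 of 878 (2.16%). With every cell thinned to 2000 UMIs the shares were 48.7%, 0.493% and 0.114%. By library, the thinned regulatory T cells gave 47 of 86 (54.7%) in the control and 10 of 31 (32.3%) in the Flcn iΔEC library, the reverse order. Cells with a single Foxp3 UMI had fewer of these genes: 33 of 56 (58.9%) had at least 3 of the 5 genes, beside 59 of 61 (96.7%) of those with 2 or more, and of the 13 regulatory T cells with none of the 5, 12 had 1 Foxp3 UMI. Thinned, the shares were 35.7% and 60.7%. The 65 cells with and the 52 without a Cd4 UMI were set side by side. In this order, Il2ra was seen in 64.6% and 67.3%, Ctla4 in 70.8% and 73.1%, Tnfrsf4 in 66.2% and 59.6%, and Ikzf2 in 81.5% and 84.6%.

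**Figure D1:**
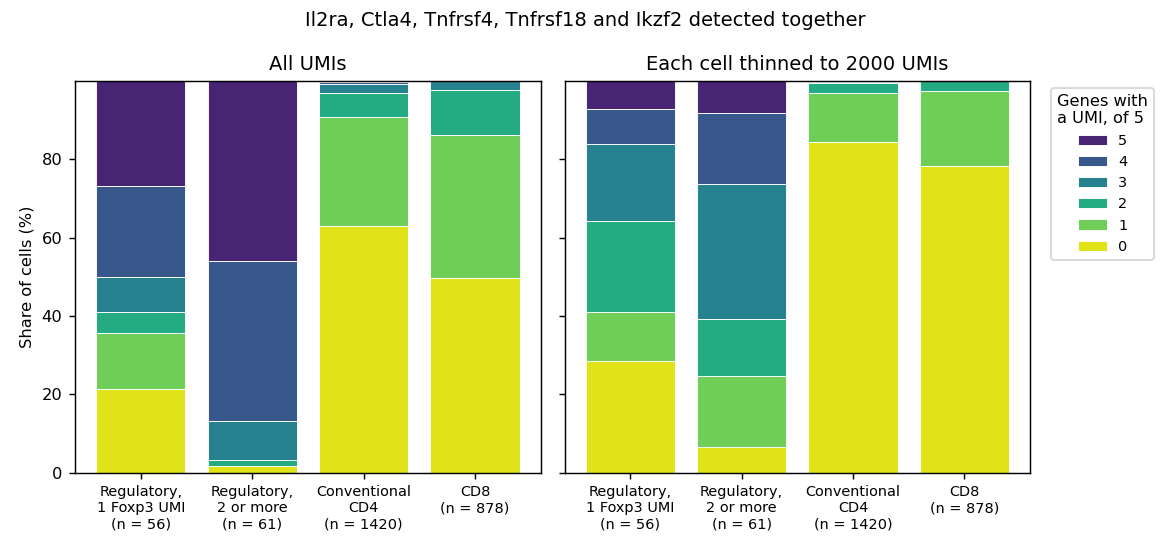
Share of cells (y axis, percent) by how many of Il2ra, Ctla4, Tnfrsf4, Tnfrsf18 and Ikzf2 had a UMI, with all UMIs (left) and with each cell thinned to 2000 UMIs (right), both libraries together. Bars give 56 regulatory T cells with 1 Foxp3 UMI, 61 with 2 or more, 1420 conventional CD4 and 878 CD8 T cells. Most conventional CD4 T cells had none of the 5 genes (896 cells, 63.1%), while 59 of the 61 cells with 2 or more Foxp3 UMIs had at least 3.

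For expression levels, UMIs were summed per library and cell group, and regulatory T cells were set against conventional CD4 T cells by edgeR's quasi-likelihood test with the library as a block, on 4 sums, so that 1 residual degree of freedom was left and the spread was pooled over genes. Of 10244 genes tested, 424 (4.14%) were higher and 293 (2.86%) lower in regulatory T cells at a Benjamini-Hochberg adjusted p under 0.05. The log2 ratios below come from this fit with their standard errors (SE), CPM values are given in the order control, Flcn iΔEC, and adjusted p-values are from this edgeR test. The median log2 ratio of all genes was -0.04. Scaling by total UMIs without TMM factors moved it to 0.16 and turned the calls to 741 higher and 183 lower, so the balance of the 2 directions depended on scaling, while no gene whose log2 ratio is given below changed direction under it. The fit without the mixed cells, given below where calls turn on them, called more genes as a whole. In it 479 of 10192 genes were higher and 362 lower. Against CD8 T cells, 554 of 9735 genes (5.69%) were higher and 441 (4.53%) lower.

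Of the 17 surface and identity genes, 16 could be tested and 15 were higher in regulatory T cells, with a list median of 3.43, and none was lower. Tnfrsf4 (chr4:156013843-156016612, plus strand, mm10), whose product takes up costimulation by OX40 ligand, stood at 552 (95% Poisson interval 498 to 609.8) and 709 CPM (622 to 805), against 12.6 (10.3 to 15.2) and 14.6 CPM (10.5 to 19.6) in conventional CD4 T cells. The intervals lay far apart in both libraries, and the edgeR log2 ratio was 5.31 (SE 0.19, adjusted p = 2.19e-17). Il2ra (chr2:11642807-11693193, plus strand), the IL-2 receptor chain introduced above, stood at 234 (199 to 273) and 227 CPM (178 to 284) against 8.60 and 5.08 CPM, an edgeR log2 ratio of 4.77 (SE 0.20, adjusted p = 3.42e-16). Lrrc32 encodes GARP, which holds latent TGF-beta at the cell surface. It stood at 75.1 and 35.8 CPM against 1.41 and 1.69, with a log2 ratio of 5.14 (SE 0.42, adjusted p = 4.83e-10). Itgb8, an integrin chain that releases active TGF-beta, was at 31.8 and 17.9 CPM in regulatory and at 0.471 and 0.338 CPM in conventional CD4 T cells, a log2 ratio of 5.67 (SE 0.78, adjusted p = 7.59e-06). Ctla4, the inhibitory receptor that takes B7 ligands from antigen-presenting cells, was measured at 482 and 468 CPM against 35.7 and 49.1, a log2 ratio of 3.32 (SE 0.16). Tnfrsf18 and Tnfrsf9, a further pair of costimulatory TNF receptors, had log2 ratios of 3.38 and 3.48, and Nrp1, a semaphorin co-receptor often used to mark cells made in the thymus, had 2.83.

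**Figure D2:**
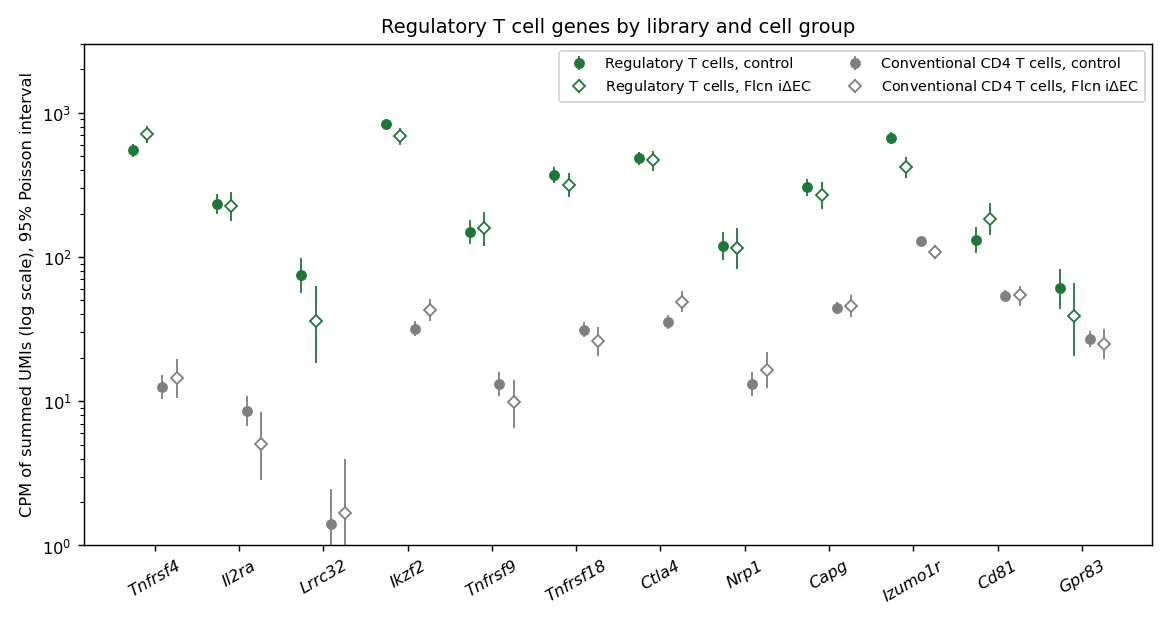
CPM of summed UMIs (y axis, log scale) for 12 genes (x axis) in regulatory T cells (green) and conventional CD4 T cells (grey) of the control (filled circles) and Flcn iΔEC library (open diamonds), 1 library each, with bars for the 95% Poisson interval, which covers counting error only. For Tnfrsf4 the regulatory T cells stood at 552 and 709 CPM and the conventional ones at 12.6 and 14.6, while Gpr83 at the right had the smallest gap.

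The smaller differences of the list were those of genes that conventional CD4 T cells also used. Izumo1r, which encodes folate receptor 4, was at 669 and 420 CPM against 130 and 109 (log2 ratio 1.96, SE 0.18). Icos, a CD28 relative, was at 91.0 and 80.5 CPM against 43.5 and 49.4 (0.72, SE 0.21, adjusted p = 0.0282), a call that several alternative settings did not keep. Gpr83, an orphan receptor, was at 60.6 and 38.7 CPM against 27.0 and 25.0, a log2 ratio of 0.80 that missed the threshold (SE 0.26, adjusted p = 0.0617) and passed it without the mixed cells. Tigit, an inhibitory receptor seen in 7 regulatory T cells, had too few UMIs to test. Against CD8 T cells, 15 of 16 were higher and Itgae was lower. Itgae encodes CD103, the integrin chain of lymphocytes in epithelia. It stood at 23.1 and 35.8 CPM in regulatory T cells, between 0.942 and 2.03 CPM in conventional CD4 and 59.8 and 61.4 CPM in CD8 T cells, with log2 ratios of 4.15 (SE 0.61) and -1.33 (SE 0.28).

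Of 13 genes of the IL-2 receptor and STAT5 pathway, 5 were higher and 1 lower, with a list median of 0.34. Il2rb, the signalling chain shared with the IL-15 receptor, was at 95.3 and 68.6 CPM against 6.59 and 6.09 (log2 ratio 3.53, SE 0.27, adjusted p = 1.58e-10). Cish, a STAT5 target that damps cytokine signals, was at 88.1 and 149 CPM against 9.66 and 16.9 (2.96, SE 0.22). Socs2, of the same family, was at 56.3 and 26.8 CPM against 1.65 and 2.37 (4.36, SE 0.47), and Stat5a itself at 82.3 and 74.5 against 37.8 and 41.6 (0.81, SE 0.22, adjusted p = 0.0155). Bcl2, the survival gene, was lower at 142 and 182 CPM against 168 and 215 (-0.45, SE 0.12, adjusted p = 0.0195), a call that 10 alternative settings did not keep. The kinase Jak1 and Il2rg, Jak3, Stat5b, Socs1, Socs3 and Mcl1 did not pass the test, and without the mixed cells Jak1 was lower and Bcl2 did not pass.

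Of 15 genes of the TNF receptor and NF-kB pathway, 8 were higher and none lower, with a list median of 0.95. Beyond the receptors already named, Tnfrsf1b, which encodes TNF receptor 2, stood at 62.1 and 89.4 CPM against 7.89 and 13.2 (log2 ratio 2.67, SE 0.27). Traf1, an adaptor of these receptors, stood at 549 and 525 CPM against 78.8 and 87.6 (2.49, SE 0.17, adjusted p = 9.23e-12). Among the NF-kB subunits, Rel, whose loss in mice leaves few regulatory T cells, was at 257 and 393 CPM against 99.2 and 124 (1.30, SE 0.11), and Nfkb1 was at 334 and 420 against 140 and 133 (1.24, SE 0.15). The inhibitor Nfkbia was higher by less, at 1528 and 2179 CPM against 942 and 1184 (0.58, SE 0.17, adjusted p = 0.0320). Without the mixed cells 11 of the 15 passed, with Nfkb2, Relb and Tnfaip3 added, in a fit that called more genes as a whole.

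Of 18 transcription factors, 6 were higher, 3 lower and 9 did not pass. Ikzf2 was detected in 82.9% of regulatory T cells, 8.80% of conventional CD4 and 32.9% of CD8 T cells, so that CD8 T cells also held it. Its levels were 833 and 686 CPM against 31.9 and 43.0 in conventional CD4 T cells (log2 ratio 4.16, SE 0.21, adjusted p = 2.41e-14) and 96.4 and 107 in CD8 T cells (2.68, SE 0.14). Ikzf4, or Eos, which works with Foxp3 in silencing genes, was higher as well, at 44.8 and 41.7 CPM against 6.71 and 10.8 (2.22, SE 0.34). Ikzf1, the founding member of that family, went the other way at 136 and 110 CPM against 247 and 213 (-1.09, SE 0.13). Batf, an AP-1 factor of activated T cells, had a log2 ratio of 1.81 (SE 0.23), and Prdm1, which encodes Blimp-1, 2.70 (SE 0.65) from only 10 cells. Irf4 (0.81, SE 0.24, adjusted p = 0.0366) and Gata3 (0.76, SE 0.18) completed those that rose, calls that several alternative settings did not keep. Without the mixed cells Nr4a3, a nuclear receptor, also passed as higher and Bach2, a repressor of effector genes, as lower. Satb1, a chromatin organizer of thymocytes, was lower at 277 and 221 CPM against 555 and 472 (-1.25, SE 0.18), and so was Runx3, a factor of the CD8 lineage, at 37.5 and 44.7 against 61.6 and 95.4 (-1.08, SE 0.23).

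Of 14 mediators of suppression listed, 10 were tested, 8 were higher, none was lower, and Tgfb1 and Cd274 did not pass. Nt5e (CD73), which makes adenosine, gave UMIs in 31 cells, at 70.8 and 59.6 CPM against 3.77 and 9.14 (log2 ratio 3.40, SE 0.33). Ebi3, a chain of interleukin 35, was at 15.9 and 59.6 CPM against 3.41 and 1.69 (3.19, SE 0.56). Lgals1, or galectin-1, was abundant in both groups, at 617 and 638 CPM against 264 and 206 (1.21, SE 0.18). Lag3 and Pdcd1, a pair of inhibitory receptors, were at 43.3 and 5.96 CPM and at 27.4 and 5.96 CPM, with log2 ratios of 2.58 (SE 0.56) and 3.83 (SE 0.76). Their Flcn iΔEC values rested on very few UMIs, with 2 of Pdcd1. Gzmb, the cytotoxic protease granzyme B, came from 9 cells with 44.4% of its UMIs in 1 of them, and Areg, the tissue repair factor amphiregulin, from 6 cells. Tgfb1 did not differ beyond the error, at 221 and 197 CPM against 197 and 179 (adjusted p = 0.906). Il10 was seen in 6 regulatory T cells (5.13%), and with Il12a, Entpd1 and Prf1 it had too few UMIs to test.

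Genes of resting, recirculating T cells were mostly lower. Of 13, 9 were lower, 1 was higher and 3 did not pass, with a list median of -1.10. Dapl1, a marker of naive T cells, was at 40.4 and 44.7 CPM against 231 and 257 (log2 ratio -2.72, SE 0.16, adjusted p = 7.16e-13), and Igfbp4, also of naive cells, at 98.2 and 92.4 against 447 and 519 (-2.53, SE 0.19). The factors Tcf7 and Lef1, which maintain naive T cells, had ratios of -1.46 (SE 0.19) and -1.22 (SE 0.19). Klf2, which drives the exit receptor S1pr1, was at 796 and 590 CPM against 1048 and 1559 (-1.10, SE 0.21). Il7r, the receptor of the survival cytokine interleukin 7, was lower by -0.79 (SE 0.13). Ccr7, a chemokine receptor for entry into lymph nodes, was at 354 and 232 CPM against 371 and 331, which did not pass (-0.48, SE 0.18, adjusted p = 0.125) and passed as lower without the mixed cells. Cd27, a costimulatory TNF receptor, was the higher one (0.59, SE 0.13).

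Genes of activated regulatory T cells were higher in 15 of 17 cases and lower in none, with a list median of 1.90. The calcium-binding protein S100a6 was at 414 and 879 CPM against 22.4 and 27.7 (log2 ratio 4.37, SE 0.20, adjusted p = 2.25e-15), S100a4 at 218 and 385 against 35.0 and 25.0 (2.97, SE 0.18), and Rgs1, a brake on chemokine receptor signals, at 218 and 468 against 29.3 and 65.3 (2.66, SE 0.13). Klrg1, an inhibitory receptor of terminally differentiated lymphocytes, was nearly absent from conventional cells. It gave 29 and 48 UMIs in regulatory T cells, and in conventional CD4 T cells 0 UMIs in the control library, where 3 counts would be 0.353 CPM, and 1 UMI in the Flcn iΔEC library, a ratio there of 423 with a counting interval of 72.3 to 17044. Both libraries were thus one-sided (adjusted p = 4.83e-13). Il1rl1, the receptor of interleukin 33, was low, at 11.6 and 23.8 CPM against 1.06 and 1.02 (3.63, SE 0.80). Cd69, an early activation marker, did not pass, at 773 and 1130 CPM against 786 and 746.

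**Figure D3:**
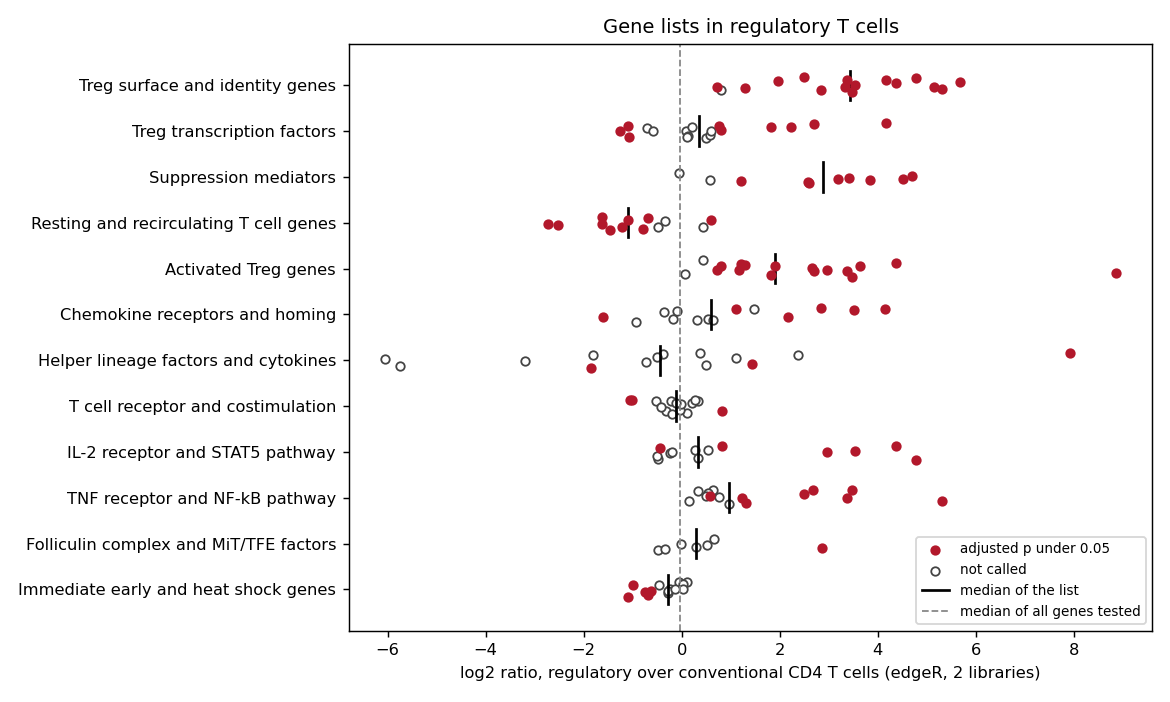
log2 ratio of regulatory over conventional CD4 T cells (x axis, edgeR, 2 libraries) for every tested gene of 12 lists (y axis), filled where the adjusted p was under 0.05 and open where it was not. Black bars are list medians and the dashed line is the median of all genes tested, -0.04; identity, suppression and activated genes lie to the right (medians 3.43, 2.89 and 1.90) and resting genes to the left (-1.10). The rightmost filled helper point is Il4, which came from 1 mixed cell.

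Among 18 chemokine receptor and homing genes, 14 were tested, 5 were higher and 1 lower. Ccr2, a receptor for entry into inflamed tissue, was at 20.2 and 38.7 CPM against 1.18 and 1.35 (log2 ratio 4.15, SE 0.63). Itga4 and Itgb1, the chains of the VLA-4 integrin, had ratios of 1.11 (SE 0.12) and 2.17 (SE 0.21). Ccr4 and Cxcr3, which guide T cells to tissues, rose from 13 and 6 cells (2.85, SE 0.75, and 3.51, SE 0.72). Gpr183, a receptor for oxysterols that positions T cells in lymphoid organs, was lower at 54.9 and 23.8 CPM against 118 and 108 (-1.60, SE 0.22). Ccr9 and Itgb7, which direct T cells to the gut, and Cxcr4 and Cxcr5 did not pass, while S1pr4 passed as higher once the mixed cells were left out.

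Helper lineage genes gave no common direction. Of 14 tested, 2 were higher and 1 lower. The higher pair were Il4, whose 117 UMIs all came from the mixed cell with basophil genes, and Rora, a nuclear receptor of tissue T cells, at 83.7 and 128 CPM against 35.2 and 28.1 (log2 ratio 1.43, SE 0.22). Cd40lg, the helper signal to B cells, was lower at 15.9 and 17.9 CPM against 51.7 and 52.4 (-1.85, SE 0.31, adjusted p = 0.000124). Without the mixed cells, Ifng, Rora and Ltb were higher and Cd40lg and Tnf lower, and Ifng rested on 4 cells with 69.6% of its UMIs in 1 of them. The T cell receptor machinery was close to level, with 1 of 15 genes higher and 2 lower. Cd2, an adhesion receptor, was the higher one at 640 and 504 CPM against 306 and 256 (0.81, SE 0.18), while the adaptor Lat (-1.06, SE 0.18) was among the lower, and without the mixed cells the costimulatory receptor Cd28 and the receptor chain Trac passed as lower too.

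Ranked by size of the ratio among called genes of at least 50 CPM, the top 12 were Prss34, Mcpt8, Klrg1, Il4, Ccl3, Ccl4, Tnfrsf4, Actg2, Lrrc32, Il2ra, Penk and S100a6. Prss34, Mcpt8 and Il4 came wholly from the mixed basophil-gene cell, which also held 251 of the 252 UMIs of Ccl3 and 402 of the 405 of Ccl4. Without mixed cells Ccl4 had a log2 ratio of -0.64. Outside the lists, Actg2, a smooth muscle actin, gave UMIs in 19 regulatory T cells, at 78.0 and 44.7 CPM against 0.236 and 4.74 (5.20, SE 0.54, adjusted p = 6.21e-08). Penk, the precursor of the enkephalin opioid peptides, came from 13 cells, at 69.3 and 185 CPM against 0.942 and 9.47 (4.74, SE 0.32, adjusted p = 8.11e-12).

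The bottom 12 were S100a9, S100a8, Pdlim4, Mgp, Pde3b, Dapl1, Igfbp4, Tdrp, Fam101b, Cd40lg, Cd7 and Ly6c1. S100a8 and S100a9, the calprotectin genes of neutrophils, were listed at 0 in regulatory T cells and could no longer be tested once the mixed conventional cells were left out. Pdlim4, a cytoskeletal adaptor, was at 8.66 and 2.98 CPM against 75.8 and 77.8 (log2 ratio -3.69, SE 0.37, adjusted p = 2.72e-08). Pde3b, which degrades cyclic AMP and is a known target of repression by Foxp3, was at 8.66 and 5.96 CPM against 56.9 and 67.0 (-3.15, SE 0.36, adjusted p = 4.07e-07). Mgp, a matrix protein, stood at 14.4 and 20.9 CPM in regulatory T cells but at 6.24 and 507 CPM in conventional ones, and its ratio of -3.42 (SE 0.47) was 1.21 in the control library alone and -4.60 in the Flcn iΔEC library alone.

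A loss of folliculin was not detectable in these cells at this depth. Flcn gave 9 and 7 UMIs in regulatory T cells (13.0 and 20.9 CPM), beside 12.4 and 9.47 CPM in conventional CD4 T cells and 10.3 and 10.1 CPM in cells with Cdh5, whose promoter drives Cre. Counts at the 3′ end need not show the loss of an exon. Of 7 tested genes of the folliculin complex and the MiT/TFE factors it controls, 1 was higher than in conventional CD4 T cells: Rragd, a GTPase that places mTORC1 on lysosomes, at 14.4 and 11.9 CPM against 1.53 and 1.69 (log2 ratio 2.86, SE 0.78, adjusted p = 0.0187), from 11 cells. Tfe3 was at 18.8 and 17.9 CPM against 23.6 and 21.0.

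Immediate early and heat shock genes, which dissociation can induce, were lower in 5 of 14 cases and higher in none. Hspa1a, an inducible HSP70, differed far more between the libraries than between the cell groups, at 13.0 and 748 CPM in regulatory and 29.2 and 1254 CPM in conventional CD4 T cells (log2 ratio -1.10, SE 0.21, adjusted p = 0.00076). Hspa1b, its twin, was lower as well, at 20.2 and 241 CPM against 30.1 and 429.7, and Dnajb1, an HSP40, gave -0.76 (SE 0.14), while Jun (-0.69, SE 0.18) and Egr1 (-0.62, SE 0.16) were the immediate early genes that passed. Without the mixed cells the chaperone Hsp90aa1 passed as lower. The part of dissociation in the other differences was not tested.

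The activated genes were unevenly spread over the regulatory T cells. Leaving out the 2 mixed cells, Klrg1 was detected in 10 of 86 control (11.6%, 5.72 to 20.3%) and 8 of 29 Flcn iΔEC cells (27.6%, 12.7 to 47.2%), and thinned to 2000 UMIs in 5 (5.81%) and 2 (6.90%). The cells with Klrg1 were deeper, with medians of 9389.5 and 10809 UMIs beside 7199 and 7552 for those without. They were compared by CPM, as a description only, since this split was chosen after the values were seen. S100a6 stood at 1154 CPM with and 289 without Klrg1 in the control library, and at 1861 and 533 CPM in the Flcn iΔEC library. S100a4 stood at 796 and 120 CPM, and at 882 and 198, and the integrin chain Itga4 at 517 and 172, and at 539 and 229. Il1rl1 was at 49.7 and 5.07 CPM, and at 68.6 and 5.08, from only 5 and 3 UMIs in the control and 7 and 1 in the Flcn iΔEC library. The resting genes ran the other way. Ccr7 was at 0 CPM with and 414 without Klrg1 in the control library, and at 19.6 and 386 in the Flcn iΔEC library. Dapl1 and Actn1 were listed at 0 in the Klrg1 cells of both libraries, and Tcf7 was at 29.8 and 272 CPM, and at 88.2 and 188. Of 13 resting genes, 11 were lower in the Klrg1 cells of both libraries and 1 was higher, and of 14 activated genes 10 were higher and 2 lower, beside 1592 (30.4%) higher and 1379 (26.3%) lower of all 5245 genes with enough UMIs. Of 16 identity genes, 9 were higher in the Klrg1 cells of both libraries and 3 lower, and Tnfrsf4 was at 856 with and 500 CPM without Klrg1 in the control and at 705 and 777 in the Flcn iΔEC library.

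**Figure D4:**
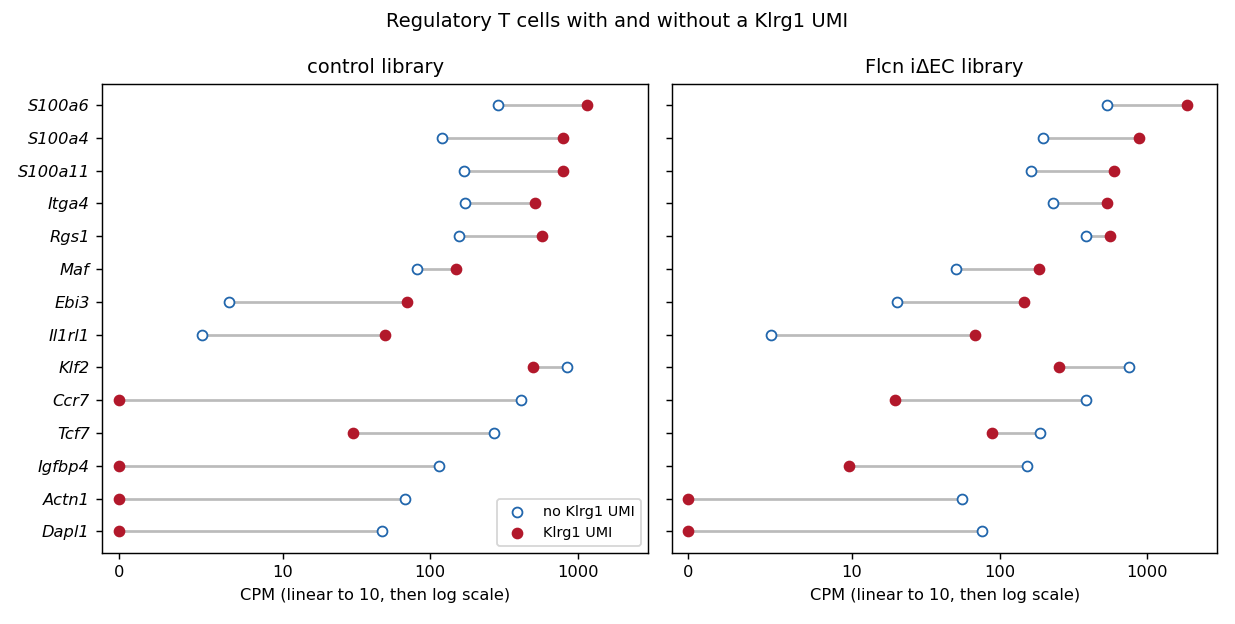
CPM (x axis, linear to 10 and log above) of 14 genes (y axis) in regulatory T cells with (red) and without (blue, open) a Klrg1 UMI, in the control (left, 10 and 76 cells) and the Flcn iΔEC library (right, 8 and 21 cells), without mixed cells; the genes and the split were chosen after the values were seen. In both libraries S100a6 to Il1rl1 lie higher with Klrg1, and Klf2 to Dapl1 lower, with Dapl1 and Actn1 at 0.

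Between the 2 libraries, regulatory T cells were compared by the ratio of CPM, Flcn iΔEC over control, with an exact interval that covers counting error only. Of 2726 genes with at least 50 UMIs, 55 (2.02%) were more than 2-fold higher and 54 (1.98%) more than 2-fold lower with an interval that left out 1. The 8 highest ratios came from the mixed cells and from Xist, and 2 of the 8 lowest were Y-linked. Hbb-bt, Hba-a1, Hbb-bs and Hba-a2, the globin genes, had at least 99.3% of their UMIs in 1 cell (ratios 2960, 1471, 699.7 and 423), and Ccl3, Cxcl2 and Ccl4 had at least 99.3% in the other mixed cell (518, 343 and 277). Xist, at least 207-fold higher with 3 counts as the floor, and Ddx3y and Eif2s3y, with 62 and 59 UMIs against 0, complete the sets, and conventional CD4 T cells were divided alike, with Xist at 0.353 and 879 CPM. The remaining low ones were Gm26802 at 0.140 (0.0660 to 0.266; 0.381 in conventional CD4 T cells), the zinc finger gene Hivep3 at 0.275 (0.127 to 0.535; 0.247), the splicing factor Srsf4 at 0.289 (0.111 to 0.640; 0.983), Bccip, a partner of BRCA2, at 0.326 (0.142 to 0.663; 0.692), the receptor Cd160 at 0.328 (0.125 to 0.735; 0.809) and the creatine kinase Ckb at 0.337 (0.138 to 0.718; 0.999). Hivep3 was thus as far apart in conventional CD4 T cells, while the ratios of Srsf4 and Ckb there were near 1. For Cd160, 41.2% of the UMIs came from 1 cell.

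Without the mixed cells 42 genes were more than 2-fold higher and 44 lower, of 2645. None of 13 identity genes was past 2-fold in either direction, and their median log2 ratio was -0.09, beside -0.01 for the same genes in conventional CD4 T cells. Of 11 resting genes none was past 2-fold, with a median of -0.42 beside 0.03 in conventional CD4 T cells. Of 12 activated genes, 3 were more than 2-fold higher and none lower: Klrg1 at 41.9 and 161 CPM (ratio 3.83, 2.37 to 6.31), S100a6 at 414 and 987 CPM (2.38, 2.02 to 2.81), and Rgs1 at 218 and 445 CPM (2.04, 1.60 to 2.59). The last 2 were past 2-fold in conventional CD4 T cells as well once mixed cells were left out, where Klrg1 had too few UMIs, so a difference between the libraries that is particular to regulatory T cells was not shown. Cells with more activated than resting UMIs were 11 of 86 in the control and 12 of 31 in the Flcn iΔEC library, mixed cells included. Hspa1a (58.7, 30.4 to 129.97) and Hspa1b (10.8, 5.97 to 20.8) were higher in the Flcn iΔEC library, as in conventional CD4 T cells, where their ratios were 42.9 and 14.3. Socs3, an inhibitor of cytokine signals, gave 3.35 (2.15 to 5.27) beside 2.91 in conventional CD4 T cells. Cd5, a receptor whose level follows the strength of T cell receptor signals, was lower at 326 and 161 CPM (0.492, 0.352 to 0.674), beside 0.737 in conventional CD4 T cells. Since genotype, sex and library are the same split, none of these ratios can be assigned to the deletion of Flcn.

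**Figure D5:**
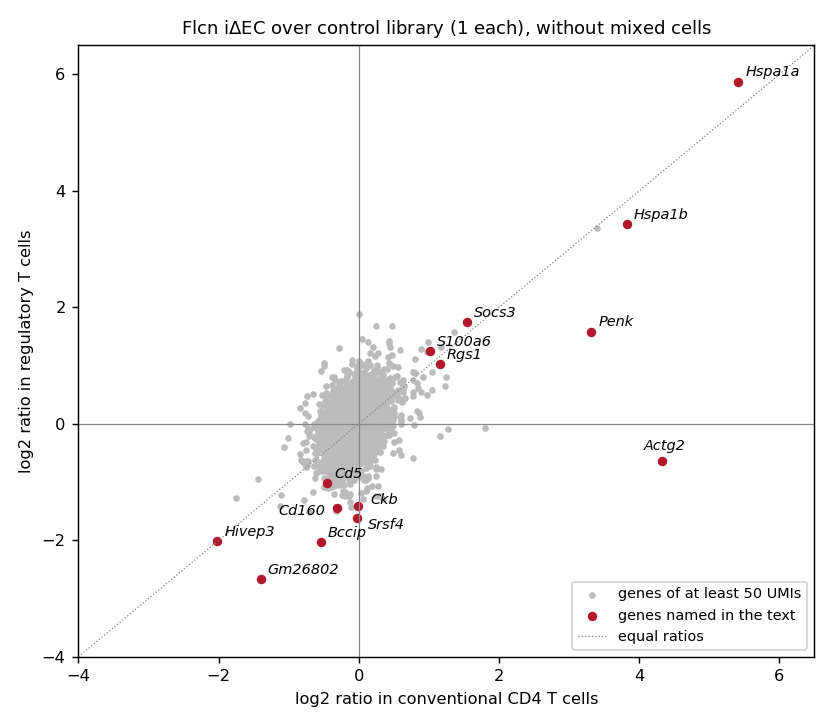
log2 ratio of CPM, Flcn iΔEC over control library, in conventional CD4 T cells (x axis) and regulatory T cells (y axis) for genes with at least 50 UMIs, 1 library each, without mixed cells. Red points are genes named in the text and the dotted line marks equal ratios; Hspa1a and Hspa1b lie near that line at the upper right, Srsf4 and Ckb lie well below 0 for regulatory T cells and next to 0 for conventional CD4 T cells, and Actg2 lies to the right, with a ratio above 0 only for conventional CD4 T cells.

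Markers of other cell types were summed beside these results. B cell genes (9 listed) stood at 449 and 689 CPM in regulatory and 495 and 439 CPM in conventional CD4 T cells, with Ms4a1 at 0 in both libraries of the former. Of the 9, Cd79b and Ighm were higher and H2-Aa and Cd74 lower. The endothelial list was at 146 and 113 CPM beside 151 and 149, with Esam and Lyve1 at 0 and none of 5 tested genes called. The list of CD8 T and NK cells was at 66.4 and 119 CPM beside 43.3 and 40.6, and 875 and 762 in CD8 T cells. Nkg7 and Ccl5 were higher and Gzma lower than in conventional CD4 T cells, with Klrd1, Klrk1, Gzma, Ncr1 and Klrb1c at 0. Genes of gamma-delta T cells were at 7.22 and 2.98 CPM, those of group 3 innate lymphoid cells at 5.78 and 26.8, and those of fibroblasts at 8.66 and 5.96. The myeloid list was at 107 and 334 CPM beside 292 and 111, with S100a8, S100a9, C1qb and Csf1r at 0 in both libraries of regulatory T cells, and without the mixed cells Tyrobp and Fcer1g were lower and Cst3 higher. The globin genes and Alas2 were at 43.3 and 33786 CPM beside 3420.5 and 108, where 2 mixed conventional cells fell in the control library. The part of these transcripts in the differences above was not tested beyond leaving out the mixed cells.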

How the data were processed

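Single-cell RNA counts of CD31+ mesenteric cells were available from 1 control and 1 Flcn iΔEC library. Per the labels and the study's methods, the authors made Chromium 3′ v3 libraries and ran Cell Ranger 3.0 (3.0.1 in the file headers) against mm10, and the deposited matrices hold UMI counts per gene and cell, not normalized. Of 28692 genes, 28416 IDs were found in GENCODE M21. The members and the gene lists, some of which share genes, were chosen with earlier results of these data known.

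Cells were not taken as replicates. UMIs were summed per library and cell group and tested by edgeR 4.0.16 (R 4.3.3; TMM, quasi-likelihood, library as a block, genes with at least 20 summed UMIs, Benjamini-Hochberg). The 10 genes named in the rule, Cd4 and mitochondrial genes were left out of the tests, while CPM used all UMIs. The SE is the log2 ratio divided by the root of F. Beside the lists, the text names the 12 largest and 12 smallest log2 ratios among called genes of at least 50 CPM and the 8 largest and 8 smallest library ratios. Shares have exact Clopper-Pearson intervals. Intervals and floors of 3 counts cover counting error only, and with 3 pooled mice and 1 library per genotype the spread between mice is unknown. Scrublet ran in scanpy 1.11.5. DESeq2 1.42.0, other normalizations, filters and gates were alternatives, and the tests were tried on simulated counts with known changes. Motifs were searched with Python 3.11.15 in RefSeq promoters. Results for some listed genes are counted in their lists but not reported here.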

Additional observations from a re-analysis of the deposited data

Results flagged for a closer look

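For 19 genes, 9 of which are given here, the ratio of regulatory over conventional CD4 T cells lay on opposite sides of 1 in the 2 libraries, each with a counting interval that left out 1. The difference between the libraries was not tested. The globin genes came from single mixed cells: Hbb-bt had a ratio of 395 in the Flcn iΔEC and 0.00345 in the control library, Hbb-bs 269 and 0.0143, Hba-a1 384 and 0.00630, and Hba-a2 401 and 0.0235. Cxcl2, a neutrophil chemokine, had 731 and 0.168, with nearly all UMIs of regulatory T cells in the mixed basophil-gene cell. Mgp had 0.0412 and 2.31. The remaining ratios were nearer to 1. Selplg, the P-selectin ligand, had 0.679 and 1.41, the T cell receptor constant gene Trbc1 0.885 and 1.42, and the immediate early gene Fos 0.839 and 1.15.

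Foxp3 was also seen in cells that the gate left out. Among T cells without Cd8a or Cd8b1 and with more than 2 UMIs of Mki67 and Top2a, genes of dividing cells, 5 of 50 in the control (10.0%, exact 95% interval 3.33 to 21.8%) and 5 of 43 in the Flcn iΔEC library (11.6%, 3.89 to 25.1%) had a Foxp3 UMI. The median depth of these dividing T cells was 16250.5 and 17261 UMIs, and no background share was measured in T cells of that depth. Among cells with Cdh5, 5 of 682 control (0.733%) and 3 of 977 Flcn iΔEC cells (0.307%) had a Foxp3 UMI. Their median depths were 14370.5 and 23105 UMIs.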

How the results depend on the processing

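Against conventional CD4 T cells, 717 genes were called (424 higher, 293 lower). Thinning to 2000 UMIs gave 207 (96 and 111), a fit without the library block 270 (175 and 95) and DESeq2 282 (163 and 119, 270 of them shared with edgeR). Total counts without TMM gave 741 higher and 183 lower, and a filter of 100 summed UMIs 277 higher. Against CD8 T cells (995, 554 and 441), cells of 3000 to 12000 UMIs gave 657 (353 higher), Mki67 and Top2a of 0 gave 545 (338 and 207), thinning 139 (93 and 46), no library block 516 (299 and 217), DESeq2 301 (167 and 134), regulatory T cells with a Cd4 UMI 368 higher, and total counts 215 lower. Between the libraries (109, 55 and 54), a filter of 100 UMIs left 32 (24 and 8), a 4-fold limit without interval 20 (17 and 3), and cells with 2 or more Foxp3 UMIs gave 34 lower. The share of regulatory T cells was 4.06% and 4.29% with 2 or more Foxp3 UMIs, 4.32% and 4.55% counting only those with a Cd4 UMI, and 11.4% in the thinned Flcn iΔEC library. The other summary values in these comparisons stayed within 1.5 times the reported count or within the interval of the share.

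For 94 genes, 1482 alternative values were computed, of which 1263 kept direction and side of the threshold or, where untested, size. Another 83 untested values shifted in size, 123 no longer passed, 10 newly passed and 3 had the opposite sign. Of the 94 genes, 46 lost their call in at least 1 setting. Calls were lost most often without the library block (35 genes), with DESeq2 (29) and after thinning (24), and by gene for Bcl2 (10 settings), Irf4 (8), and Icos and Gata3 (6 each). The opposite signs were Ccl4 at -0.64 without mixed cells and Mgp at 0.62 in cells of 3000 to 12000 UMIs and, leaving out each library in turn, -4.60 to 1.21. The cause of the other shifts was not tested. No paired analysis was possible because the labels carry no replicate numbers that pair the genotypes, each of which is 1 library. The library block pairs cell groups within a library. The limit on mixed cells and the fits without them were chosen after seeing the data. Depth limits genes such as Il10, Tigit and Flcn, and 31 cells limit every value of the Flcn iΔEC library.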
